A study of Homo sapiens with 4 samples.

Results

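The RNAs described here are 7SK (gene RN7SK), the RNA of RNase MRP (RMRP) and the RNA of RNase P (RPPH1), 3 of the 18276 genes in the deposited tables. They were found by gene symbol. RN7SK carries the symbol 7SK in the tables, so its row was matched through the RefSeq synonym and chromosome 6. A further row named 7SK lies on chromosome 17 and held 1 and 2 input counts and no IP counts, and was not used. The cells were of MDA-MB-231, a human line from a triple-negative breast cancer, and the series asked which RNAs are bound by SF3B6, a small protein of the U2 particle that sits near the branch point of introns. All 4 libraries came from cells irradiated at 400 mJ/cm2 to crosslink RNA to protein, with the lysate then digested by micrococcal nuclease, so the reads come from RNA fragments. The 2 IP libraries hold RNA recovered with 5 ug of an SF3B6 antibody, and the 2 input libraries hold lysate RNA without that step. The labels mention a control IgG antibody, but no IgG library was analysed here, so recovery without regard to SF3B6 was not measured. The cell line entries name a different last digit for each sample, while the titles all give MDA-MB-231. VIM, EGFR, CD44, AXL, ANXA1 and LGALS1, genes this line expresses, had counts in each library. Of the luminal markers low in this line, CDH1 and EPCAM had between 0 and 4, ESR1 and PGR were not listed, and GATA3 had 0 and 1 IP counts and 4 and 15 input counts, in input 2 above the 14 of ANXA1.

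All 3 are non-coding RNAs of the nucleus and nucleolus, made by RNA polymerase III from promoters upstream of the gene. 7SK forms a particle with LARP7, MEPCE and HEXIM proteins that holds the kinase P-TEFb (CDK9 with a cyclin T) inactive and so restrains transcript elongation by RNA polymerase II. RNase P RNA is the catalytic core of the enzyme that cuts the 5′ leader from precursor tRNA. RNase MRP RNA resembles it, shares most of its proteins and cleaves precursor ribosomal RNA; mutations of RMRP cause cartilage-hair hypoplasia. None of the 3 is a component of the spliceosome, and their use as a control for SF3B6 binding was not tested.

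RN7SK lies at chr6:52995620-52995951, RMRP at chr9:35657750-35658019 and RPPH1 at chr14:20343071-20343411 (RefSeq, GRCh38.p14; the submitters' notes name hg38). The genes next to them lie outside their RefSeq spans and had few counts. PARP2, 223 bases from RPPH1, had 4 counts in each input and 0 in each IP library. CCDC107, 272 bases from RMRP, had 16 and 26 input counts and 4 and 0 IP counts. GSTA4, 335 bases from RN7SK, had 1 count in all. The length that the FPKM table used for each gene was recovered from counts and FPKM. It was 331 bases for RN7SK and 268 for RMRP, close to the RefSeq 332 and 270. The total used for this came from RefSeq lengths of 12 small RNA genes, the 3 RNAs among them. The closeness is therefore partly built in. For RPPH1 the recovered length was 638 bases, 1.87 times the RefSeq length of 341. The counted RPPH1 model is therefore longer than the RNase P RNA itself by about 297 bases, and the tables do not show whether reads outside that RNA were counted.

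The libraries held 55492 and 30431 gene counts in IP 1 and IP 2 and 317190 and 519836 in input 1 and input 2. The 3 RNAs were nevertheless among the best counted genes, ranking between 5 and 19 by counts in each library. Across the table, 149 of 3668 tested genes differed between IP and input (4.06%), 99 higher (2.70%) and 50 lower (1.36%) in IP (edgeR, adjusted p under 0.05). The labels call the members of each pair biological replicates without saying how they were grown apart. Each p-value therefore reflects the spread among these libraries, which may be technical. In the edgeR fit this spread was shared over tested genes, giving 34.4 degrees of freedom for each of the 3 RNAs from 4 libraries. Their edgeR intervals and p-values thus rest largely on the spread of other genes.

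None of the 3 RNAs differed between IP and input past the threshold. The IP and input shares of RN7SK and of RPPH1 overlapped, while both IP shares of RMRP lay below both input shares. The call count was 0 of 3 by edgeR, against 4.06% of all tested genes. By DESeq2 it was also 0 of 3, with 35 of 3668 genes called higher and 3 lower. DESeq2 gave no adjusted p to 1849 genes. Both counts of 0 are near these backgrounds. Of the 3, 1 (RMRP) had an unadjusted edgeR p under 0.05, as did 15.6% of all tested genes.

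7SK RNA had 306 counts in IP 1, 205 in IP 2, 2381 in input 1 and 3279 in input 2. Its share of gene counts was 0.551% in IP 1 and 0.674% in IP 2, against 0.751% in input 1 and 0.631% in input 2. The groups overlapped, with IP 1 lowest and input 1 highest. Wilson 95% intervals ran from 0.493% to 0.617% in IP 1 and from 0.588% to 0.772% in IP 2; without molecular identifiers, this and the other intervals on counts cover counting error only. After TMM scaling the level was 7835 ± 1552 CPM (counts per 1000000 counts in tested genes, SD, n = 2) in IP against 7530 ± 1197 CPM in input. The log2 fold change of RN7SK was 0.05 ± 0.23 SE (edgeR adjusted p = 0.963), with a 95% interval from -0.41 to 0.51. On a linear scale that interval spans 0.750-fold to 1.42-fold. At this scaling, changes of 7SK beyond those bounds lie outside the interval, and smaller ones were not resolved. The RN7SK value fell below 0 when library totals (-0.22), upper quartiles (-0.091) or no filter on low counts (-0.46) were used, and without IP 2 (-0.25) or input 2 (-0.05), so no direction is given for it.

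RNase MRP RNA had 220 counts in IP 1, 115 in IP 2, 2160 in input 1 and 3015 in input 2. Its share was 0.396% in IP 1 and 0.378% in IP 2, against 0.681% and 0.580% in the inputs. Both IP shares lay below both input shares, and their Wilson intervals, which reached up to 0.452% and 0.453%, stayed below those of the inputs, which began at 0.653% and 0.560%. After TMM the level was 4928 ± 118 CPM in IP and 6873 ± 1028 CPM in input. The log2 fold change of RMRP was -0.48 ± 0.22 SE (unadjusted p = 0.0336, edgeR adjusted p = 0.262; interval -0.92 to -0.04). The value was not past the threshold once adjusted over all genes. By CPM after TMM, RMRP likewise had both IP libraries below both inputs, as did 28.5% of tested genes, so this arrangement is common. How many genes lay this way by share of gene counts was not counted. Without a filter on low counts RMRP was lower (-0.97, adjusted p = 1.81e-07), in a fit whose median over all genes was -1.23.

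RNase P RNA was the most counted of the 3 and had 623 counts in IP 1, 468 in IP 2, 4102 in input 1 and 5300 in input 2. Its shares were 1.12% and 1.54% in IP and 1.29% and 1.02% in input, so the groups overlapped and IP 2 held the highest share. After TMM it stood at 17055 ± 4720 CPM in IP and 12618 ± 2566 CPM in input. The log2 fold change of RPPH1 was 0.43 ± 0.25 SE (edgeR adjusted p = 0.411; interval -0.09 to 0.94). It moved with single libraries, to 0.72 without input 1, 0.29 without input 2 and 0.03 without IP 2, and was -0.090 with no filter on low counts.

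**Figure D1:**
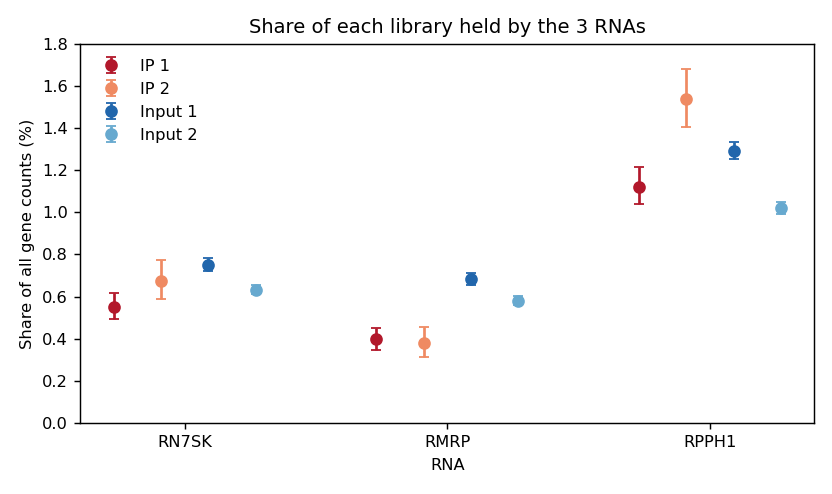
Share of all gene counts (%) held by RN7SK, RMRP and RPPH1 in each library; points are single libraries and bars are Wilson 95% intervals, which cover counting error. RMRP sits at 0.396% and 0.378% in IP, below both inputs, while the IP and input points of RN7SK and RPPH1 overlap.

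Among the 3668 tested genes the 3 RNAs lay well inside the distribution of fold changes, whose median was -0.06 and whose quartiles were -0.53 and 0.41. By log2 fold change, RMRP was above 27.3% of tested genes, RN7SK above 56.1% and RPPH1 above 75.5%.

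**Figure D2:**
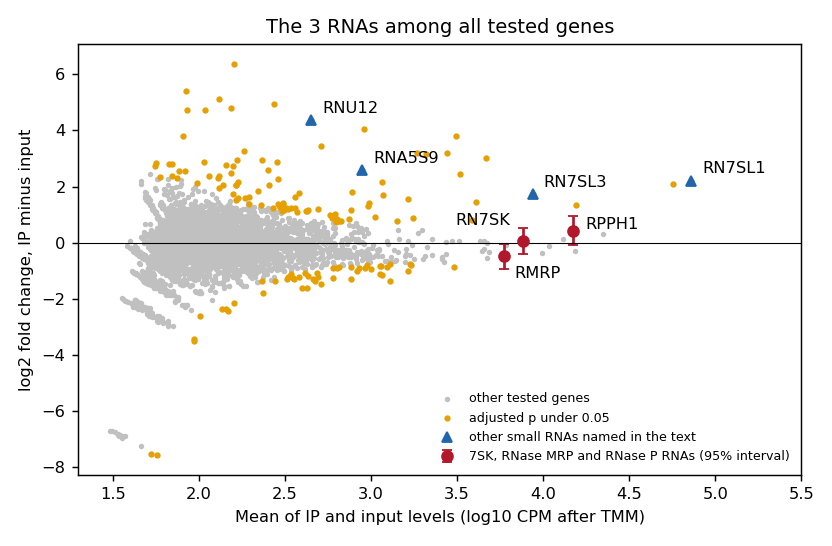
Log2 fold change (IP minus input) against the mean of IP and input levels (log10 CPM after TMM) for 3668 tested genes; orange points passed an adjusted p of 0.05, red points are the 3 RNAs with 95% intervals and blue triangles are other small RNAs. RN7SK (0.05), RMRP (-0.48) and RPPH1 (0.43) lie near 0, below RNU12, RNA5S9, RN7SL1 and RN7SL3.

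Ratios between the 3 RNAs within a library need no scaling between libraries, and in all 3 pairs the IP and input libraries did not overlap. The ratio of RMRP to RPPH1 counts, which sets the RNAs of the 2 related enzymes against each other, was 0.353 in IP 1 and 0.246 in IP 2, against 0.527 in input 1 and 0.569 in input 2. That was a log2 difference of -0.89, with log2 means of -1.76 ± 0.37 in IP and -0.87 ± 0.08 in input (SD, n = 2). Pooled counts gave a ratio 1.79-fold lower in IP than in input (exact 95% interval 1.58 to 2.04), which compares these libraries and not the conditions. Of all tested genes, 39.2% had a ratio to RPPH1 that was lower in both IP libraries than in both inputs.

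The ratios with 7SK differed less between IP and input than that of RMRP to RPPH1. RN7SK to RPPH1 was 0.491 and 0.438 in IP against 0.580 and 0.619 in input, a log2 difference of -0.37. RN7SK to RMRP was 1.39 and 1.78 in IP against 1.10 and 1.09 in input, a log2 difference of 0.52. This value follows from those of the other pairs. A ratio to RMRP that was higher in both IP libraries was found in 36.0% of tested genes. The exact permutation test, two-sided, gave p = 0.333 for each of the 3 pairs (0.333 after Benjamini-Hochberg adjustment over them), the smallest value that 2 against 2 libraries allow. IP 2 was the farther of the IP libraries from the inputs in every pair. Without IP 2 the log2 differences by pooled counts were -0.64 for RMRP to RPPH1, -0.29 for RN7SK to RPPH1 and 0.35 for RN7SK to RMRP, and without IP 1 they were -1.16, -0.46 and 0.70.

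**Figure D3:**
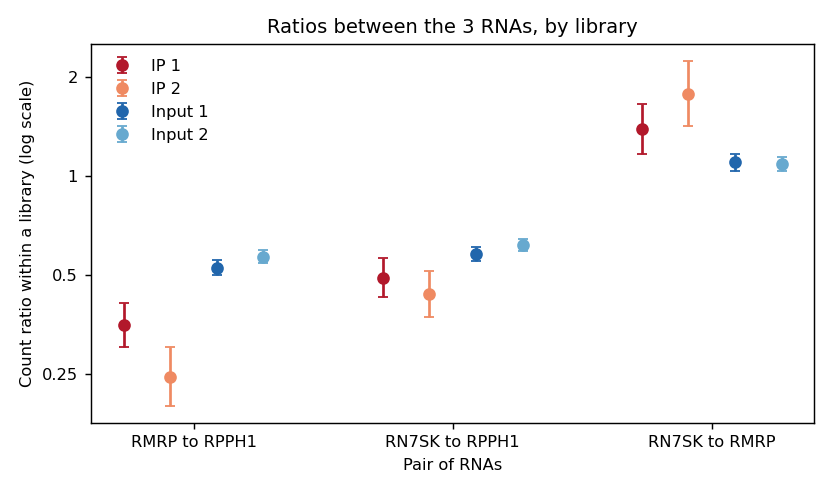
Count ratios within each library (log axis) for the 3 pairs of RNAs, with intervals derived from Wilson 95% limits of the share of 1 RNA in the pair. The RMRP to RPPH1 ratio is 0.353 and 0.246 in IP against 0.527 and 0.569 in input, and the RN7SK to RMRP ratio is higher in IP.

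Relative to RNU12 and 7SL, small RNAs higher in IP and chosen with that known, all 3 RNAs were lower in both IP libraries than in both inputs. RNU12, the U12 RNA that takes the place of U2 in the minor spliceosome, had 44 counts in IP 1, 17 in IP 2, 15 in input 1 and 18 in input 2, and met the filter on low counts through the IP libraries alone. For each RNU12 count there were 170 RN7SK counts in input and 9.16 in IP (geometric means over 2 libraries). The ratio of RN7SK to RNU12 was 18.6-fold lower in IP, that of RMRP 26.7-fold and that of RPPH1 14.4-fold. With RNU12 as the reference 99.6% of tested genes were lower in both IP libraries, so these lower ratios are not particular to the 3 RNAs. 7SL belongs to the signal recognition particle and is likewise a polymerase III transcript. Over RN7SL1 and RN7SL3 it had 3884 counts in IP 1, 4136 in IP 2, 10395 in input 1 and 11242 in input 2. Relative to 7SL, RN7SK was 4.14-fold, RMRP 5.95-fold and RPPH1 3.20-fold lower in IP, as were 92.0% of tested genes in both IP libraries.

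U1, the snRNA that pairs with the 5′ splice site, stood closer to the 3 RNAs. Summed over 15 RNU1 and RNVU1 rows it had 181 counts in IP 1, 101 in IP 2, 1496 in input 1 and 1613 in input 2. The log2 fold change relative to U1 was 0.04 for RN7SK, whose libraries overlapped. Pooled counts of all libraries gave 0.995-fold for it. With 1 library left out, pooled log2 values were -0.11 without IP 2, -0.17 without input 1, 0.16 without IP 1 and 0.19 without input 2. The log2 fold change relative to U1 was -0.48 for RMRP and 0.41 for RPPH1, which had IP libraries beyond both inputs. Of tested genes, 19.7% and 14.7% were placed in those same ways. Of the 9 comparisons with RNU12, 7SL and U1, 8 had groups that did not overlap. Those 8 reached the smallest exact permutation p, 0.333 (two-sided, adjusted p = 0.375 over the 9). RNU12 and 7SL were chosen as higher in IP, and 99.6% and 92.0% of tested genes were lower relative to them. Their part in this tally is therefore not a result about the 3 RNAs.

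For RN7SK and RPPH1 the sign of the fold change depended on the scale on which IP was set against input. By the authors' FPKM, RN7SK stood at 1220 and 1236 in IP against 3391 and 3890 in input. RMRP stood at 1083 and 856 against 3799 and 4418, and RPPH1 at 1289 and 1464 against 3031 and 3262. All 3 were lower in both IP libraries than in both inputs on this scale. How many of all genes lay this way by FPKM was not counted, so the placing is not read as a result about the 3 RNAs. The FPKM total, as recovered here, in units of 1000000, was 0.758 and 0.501 in IP and 2.12 and 2.55 in input, so gene counts were 7.32% and 6.07% of it in IP but 15.0% and 20.4% in input. With these totals as library sizes all 3 RNAs passed as lower, RN7SK at -1.57 ± 0.37 SE (edgeR adjusted p = 0.000592), RMRP at -2.08 ± 0.38 (1.65e-05) and RPPH1 at -1.19 ± 0.34 (0.00391). On that scale 57.2% of tested genes were called lower, and the median over all of them was -1.65. By limma on log2(FPKM + 1) all 3 also passed as lower, RN7SK at -1.56 (adjusted p = 0.00484), RMRP at -2.09 (0.00484) and RPPH1 at -1.19 (0.0122), with 40.5% of 5263 tested genes called lower. The sources used here do not say what the FPKM total counts beyond genes, and its part in these values was not tested.

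**Figure D4:**
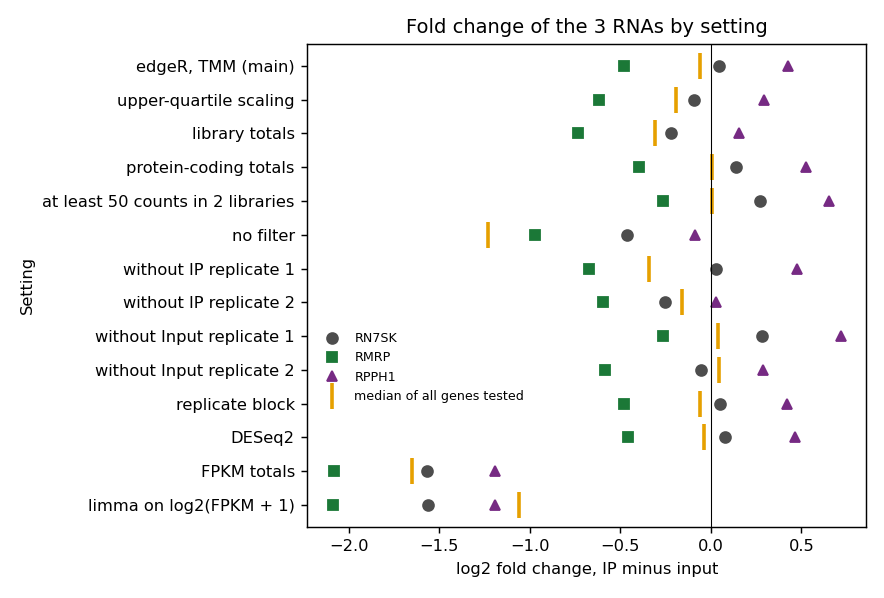
Log2 fold change (IP minus input) of RN7SK, RMRP and RPPH1 under each setting of the fit shown, with the median of all genes tested as a bar. The values move with the scaling, to -1.57, -2.08 and -1.19 with the FPKM totals. A scaling shifts the 3 RNAs nearly alike, so their order under it carries no further information.

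In the inputs the order of the 3 RNAs per length depended on the length taken for RPPH1, while in IP it was the same under both lengths. By FPKM, input had RMRP highest (4108 ± 437, SD, n = 2), then RN7SK (3640 ± 353) and RPPH1 (3146 ± 163), and this order held in each input library, although the means of neighbours differed by less than the sum of their SDs between libraries. In IP the FPKM order was RPPH1 (1376 ± 124), RN7SK (1228 ± 11.0) and RMRP (970 ± 161), which likewise held in each IP library, with the RN7SK mean farther from each neighbour than the sum of their SDs. With the RefSeq length of 341 bases, RPPH1 came to 5887 ± 306 in input and 2575 ± 231 in IP, the highest of the 3 in each library. Both levels are per kilobase and per 1000000 of the FPKM total.

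**Figure D5:**
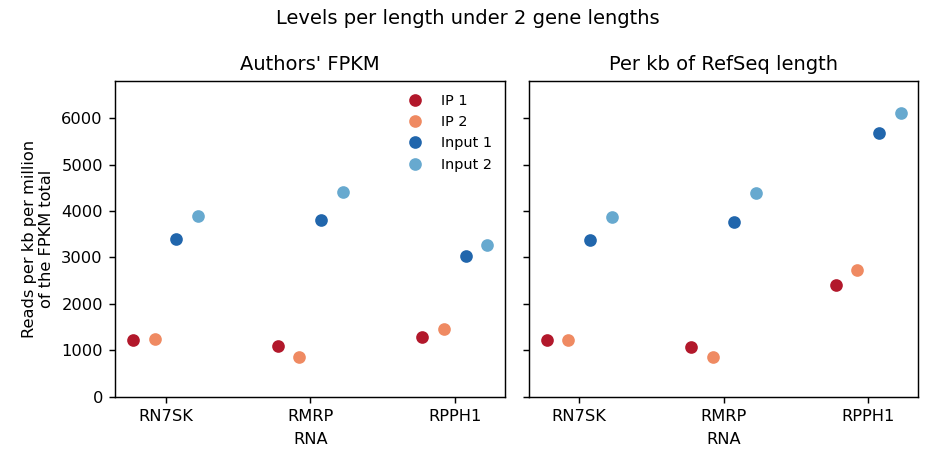
Level of each RNA per kilobase and per 1000000 of the FPKM total, in single libraries, by the authors' FPKM (left) and with RefSeq lengths (right). RPPH1 is lowest in the inputs by FPKM (3031 and 3262) and highest with its RefSeq length, because the table's length for it is 638 bases in place of 341.

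RN7SK has many pseudogene copies, and 18 rows named RN7SKP were in the table. Together they had 31 and 6 IP counts and 162 and 194 input counts. That was 9.20% and 2.84% of all 7SK and pseudogene counts in IP 1 and IP 2, and 6.37% and 5.59% in the inputs, so the IP libraries lay on either side of the inputs. RN7SKP203 alone held 69.0% of the pseudogene counts (19 and 4 in IP, 112 and 136 in input) and RN7SKP255 held 19.1%. The sources used here do not say how reads matching several copies were assigned. Summed with all RN7SKP rows, RN7SK had a log2 fold change of 0.04 (edgeR adjusted p = 0.964).

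The protein partners of these RNAs are measured here only through their messengers. Of 13 RNase P and RNase MRP protein genes (POP1, RPP30 and the like), 0 had enough counts to be tested. They had 7 counts in each IP library and 41 and 77 in the inputs in all. The list includes PRORP, a protein-only RNase P and so not a partner of these RNAs. PRORP held 15 and 16 of those input counts, and 0 and 1 of the IP counts. Of 19 genes of the 7SK particle and P-TEFb, 13 were tested and 0 passed in either direction (smallest edgeR adjusted p = 0.300). With 4.06% of all genes passing, 0 of 13 is near the background. At an unadjusted edgeR p under 0.05 there was 1 of 13, against 15.6% of all tested genes. Of the 13, 8 met the filter on low counts in both inputs; HEXIM2, DDX21, ELL, CDK9 and SART3 did not, and no median is given over the list. HEXIM1, the P-TEFb inhibitor, had 6 and 10 IP counts and 74 and 146 input counts, with a log2 fold change of -0.27 (edgeR adjusted p = 0.824). LARP7, the 7SK chaperone, had 2 and 3 input counts and no IP counts.

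Among other polymerase III transcripts, 7SL genes and a 5S rRNA gene were higher in IP. Of 23 listed, 13 were in the table and 5 were tested. RNA5S7 met the filter on low counts through IP alone, so it had to be high in IP to be tested. Of the other 4, 3 were higher in IP and 0 lower, with 2.14% of the 3031 genes that met the filter in both inputs higher. The 3 were RN7SL1 (log2 fold change 2.21, edgeR adjusted p = 6.66e-05), RN7SL3 (1.72, 2.09e-06) and the 5S rRNA gene RNA5S9 (2.58, 2.44e-11). RNA5S7, a further 5S gene, was at 3.26 (1.03e-05). RNU6ATAC, the U6atac RNA of the minor spliceosome, was at 0.53 and did not pass (edgeR adjusted p = 0.798). Without input 2 the calls of RN7SL1 and RN7SL3 were lost. With the FPKM totals RN7SL1, RN7SL3 and RNA5S9 did not pass, and RNA5S7 alone was called. In that setting 17 of 3668 genes were higher. By limma on log2(FPKM + 1), 2 of 11 were higher (RNA5S7 and RNA5S9) and 3 lower, against 35 and 2134 of all 5263 genes. On log2(FPKM + 0.1) 0 were higher and 1 lower, against 11 and 644 of 5263. RN7SL1 did not pass with a replicate block. Of 25 genes of the machinery that transcribes such genes, 3 were tested and 0 passed, near the 4.06% of all tested genes. At an unadjusted edgeR p under 0.05 there was 1 of the 3, against 15.6% of all tested genes. The most abundant were SNAPC4, a subunit of the complex that binds these promoters (0.90, edgeR adjusted p = 0.216), and MAF1, a repressor of RNA polymerase III (-0.15, 0.953).

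The genes whose levels over the 4 libraries were most like those of the 3 RNAs were chosen among genes at least 0.5 times as abundant, 17 for RN7SK, 21 for RMRP and 7 for RPPH1. The measure was the root mean square difference of log2 CPM centred on each gene. For RN7SK they were the mitochondrial rRNA gene MT-RNR2 (0.12), the nuclear lncRNA NEAT1 (0.14) and RPPH1 (0.20). For RMRP they were the mitochondrial rRNA gene MT-RNR1 (0.07), FLNA, which encodes filamin A (0.14), and IGFBP4 (0.18). For RPPH1 they were RN7SK (0.20), PLEC, which encodes plectin (0.27), and MT-RNR2 (0.31). With 4 libraries and few candidates this is a description.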

How the data were processed

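RNA of 2 SF3B6 IP and 2 input libraries of MDA-MB-231 cells was measured. The authors deposited read counts per gene, not normalized, and FPKM values of the same genes, per the file headers. HISAT2, HOMER and hg38 are named in the submitters' processing notes without role or version. The sources used here do not name the counter, strand setting or handling of reads with several matches.

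Counts of all genes passing the default filter were fitted with edgeR 4.0.16 (R 4.3.3; quasi-likelihood test, TMM, group as the only term, Benjamini-Hochberg adjustment at 0.05). The SE was derived from edgeR's F statistic, and intervals are at 95%. Ratios were tested by exact permutation (scipy 1.17.1). FPKM totals were recovered from counts of at least 20 and from the RefSeq lengths of 12 small RNA genes, the 3 RNAs among them. Alternatives were other scalings and filters, DESeq2 1.42.0, limma 3.58.1 on log2(FPKM + 1) and log2(FPKM + 0.1), a replicate block and leaving out each library. List counts under alternatives, and over genes that met the filter in both inputs, were added after the data were seen. The fit was tested on simulated data.

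The genes named were the 3 RNAs, RN7SKP rows by count, the 2 most abundant tested genes of each list, the most alike genes and the reference RNAs. LARP7, RNA5S7, RNA5S9, RNU6ATAC, SART3, HEXIM2, DDX21, ELL, CDK9, PRORP and the neighbouring genes were added after their values were seen. One gene that this rule names is not reported here. The RNAs, lists and tests were chosen with earlier results of these data known.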

Additional observations from a re-analysis of the deposited data

How the results depend on the processing

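With FPKM totals, and with limma on log2(FPKM + 1), 3 of the 3 RNAs were called. With no filter, and with limma on log2(FPKM + 0.1), 1 was (RMRP), against 0 with TMM, in the other 10 settings on counts and with limma on log2(FPKM + 1) without a filter (5443 of 18276 genes, the 3 RNAs among them, at an unadjusted p under 0.05). RN7SK turned negative with upper-quartile scaling (-0.091), library totals (-0.22), no filter (-0.46), FPKM totals (-1.57) and limma on log2(FPKM + 1) (-1.56, also with no filter) and log2(FPKM + 0.1) (-1.56). Leaving out each library gave -0.25 to 0.28. RPPH1 turned negative with no filter (-0.090), FPKM totals (-1.19) and limma on log2(FPKM + 1) (-1.19, also with no filter) and log2(FPKM + 0.1) (-1.20), and ran from 0.03 to 0.72 without each library. RMRP stayed negative throughout, and passed at -0.97 with no filter, -2.08 with FPKM totals, -2.09 with limma on log2(FPKM + 1) and -2.09 with log2(FPKM + 0.1); without each library it ran from -0.67 to -0.26 (adjusted p from 0.0628 to 0.815). RN7SK relative to U1 ran from -0.17 to 0.19 by pooled counts without each library. The other ratios kept their direction. Where 1 library of a group was left, its spread was taken from the other group.

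Over all genes, higher calls numbered 35 with DESeq2, 17 with FPKM totals, 56 with library totals, 50 with no filter, 35 with limma on log2(FPKM + 1), 11 on log2(FPKM + 0.1) and 0 without a filter, and 26 to 94 without 1 library. Lower calls numbered 3, 2098, 90, 163, 2134, 644 and 0 in the same settings, 25 with a minimum of 50 counts and 5 to 70 without 1 library. With a replicate block there were 22 lower calls against 50, and RN7SK, RMRP and RPPH1 were at 0.05, -0.48 and 0.42, with no call changed for them. Differences between replicates 1 and 2 in IP and in input were uncorrelated (0.00 across 3668 genes). Many of these genes had few IP counts, so this cannot tell whether replicate numbers pair the libraries. The cause of these shifts was not tested. At this depth 0 of 13 RNase P and RNase MRP protein genes could be tested.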
